A study of Mus musculus with 9 samples.

Results

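Translation initiation factor genes were examined in 5TGM1-Cas9 cells, which are murine myeloma cells with constant expression of the nuclease Cas9. Members were the rows of the gene tables whose symbol begins with *Eif1* to *Eif6*, leaving out the eIF2 kinases (*Eif2ak*) and symbols marked as pseudogenes. This rule found 71 of 53077 genes, of which 68 are factors and 3 are the eIF4E-binding repressors *Eif4ebp1*, *Eif4ebp2* and *Eif4ebp3*, which are described apart. Cells had been transduced with lentivirus carrying a control gRNA, a gRNA against *Slc2a1* (the glucose transporter GLUT1), or gRNAs against that gene together with *Slc2a3*, *Slc2a5*, *Slc2a6* and *Slc2a8*. Each of the 3 groups had 3 biological replicates, and all cells carried Cas9. The cultures were mixed edited populations and not clones, so cells that kept an intact target remained in both targeted groups. The *Slc2a1/3/5/6/8* gRNA cells had in addition been sorted on fluorescent reporters and expanded before the *Slc2a1* gRNA was introduced, a history that the comparison with control cannot be told apart from the loss of the transporters.

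Initiation factors bring the small ribosomal subunit to the start codon of an mRNA. eIF2 carries the initiator tRNA and is recharged with GTP by eIF2B, eIF1, eIF1A and eIF5 govern start codon choice, and the multi-subunit eIF3 holds the small subunit. eIF4E binds the mRNA cap and, with the scaffold eIF4G and the helicase eIF4A, forms eIF4F. 4E-BP proteins, encoded by the *Eif4ebp* genes, keep eIF4E from eIF4G until mTORC1 phosphorylates them. Plasma cells and their malignant counterparts make large amounts of immunoglobulin and depend on a high rate of protein synthesis.

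Estimated counts per library lay between 21838805 and 30537105. *Slc2a1* mRNA had 59.5, 26.9 and 32.9 TPM in control replicates 1, 2 and 3, 37.1, 28.3 and 31.4 TPM in *Slc2a1* gRNA cells, and 24.1, 31.5 and 19.1 TPM in *Slc2a1/3/5/6/8* gRNA cells. On TPM the groups overlapped in each comparison with control. On scaled counts (estimated counts set to a common library size) the *Slc2a1/3/5/6/8* gRNA libraries, at 1350 to 2379, lay below the control libraries, at 2398 to 5063. With the 5 gRNAs *Slc2a1* fell by 0.66 on the log2 scale (adjusted p = 0.029), *Slc2a8* by 1.22 (adjusted p = 0.000309) and *Slc2a6* by 0.67 (adjusted p = 0.0366), *Slc2a3* did not pass (0.27, adjusted p = 0.259), and *Slc2a5* rose by 2.65 (adjusted p = 0.00478) from 5 to 8 to 32 to 46 scaled counts. With the *Slc2a1* gRNA, *Slc2a1* gave -0.21 (adjusted p = 0.544). Since a frameshift need not remove an mRNA, these levels do not check the labels. Of 8 plasma cell markers 6 exceeded 1 TPM in every library, among them *Xbp1* at 384 to 568 TPM and *Irf4* at 88.9 to 154 TPM, whereas *Jchain* had 52.3 to 58.5 TPM in control, 14.2 to 26.1 in *Slc2a1* gRNA and 69.2 to 97.5 in *Slc2a1/3/5/6/8* gRNA cells, *Cd38* was at or below 0.0221 TPM and *Tnfrsf17* at or below 1.36 TPM. The summed TPM of 4 B cell, 4 T cell, 4 myeloid and 3 stromal markers did not exceed 1.76 for any of these types in any library. *Epcam* had 266 to 322 TPM in control, 125 to 162 in *Slc2a1* gRNA and 89.2 to 123 in *Slc2a1/3/5/6/8* gRNA cells, while the keratin *Krt18* did not exceed 0.463 TPM. The part of the *Jchain* and *Epcam* differences in the results below was not tested.

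In control gRNA cells 44 of the 68 factors and all 3 repressors had a mean of at least 1 TPM (a level scaled to library size and corrected for transcript length), and these same 47 genes passed the filter on low counts. The other 24 members were not tested, and none of them exceeded 3 estimated counts in any library. They comprised 17 genes of the *Eif1ad2* to *Eif1ad19* series, *Eif4a3l1*, *Eif4a3l2*, *Eif2c5*, *Eif2s3y*, *Eif4e3*, *Eif5a2* and *Eif4e1b*. *Eif2s3y*, the Y-linked copy of the eIF2 gamma subunit, had 0 estimated counts in all 9 libraries, which allows up to 0.124 TPM at 3 counts, whereas its X-linked counterpart *Eif2s3x* had 62.9 ± 5 TPM (SD, n = 3) in control cells. *Eif4e3* and *Eif5a2*, the less widely expressed counterparts of *Eif4e* and *Eif5a*, were likewise at 0 counts throughout, allowing up to 0.0546 and 0.0256 TPM. Intervals of this kind cover counting error only.

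**Figure D1:**
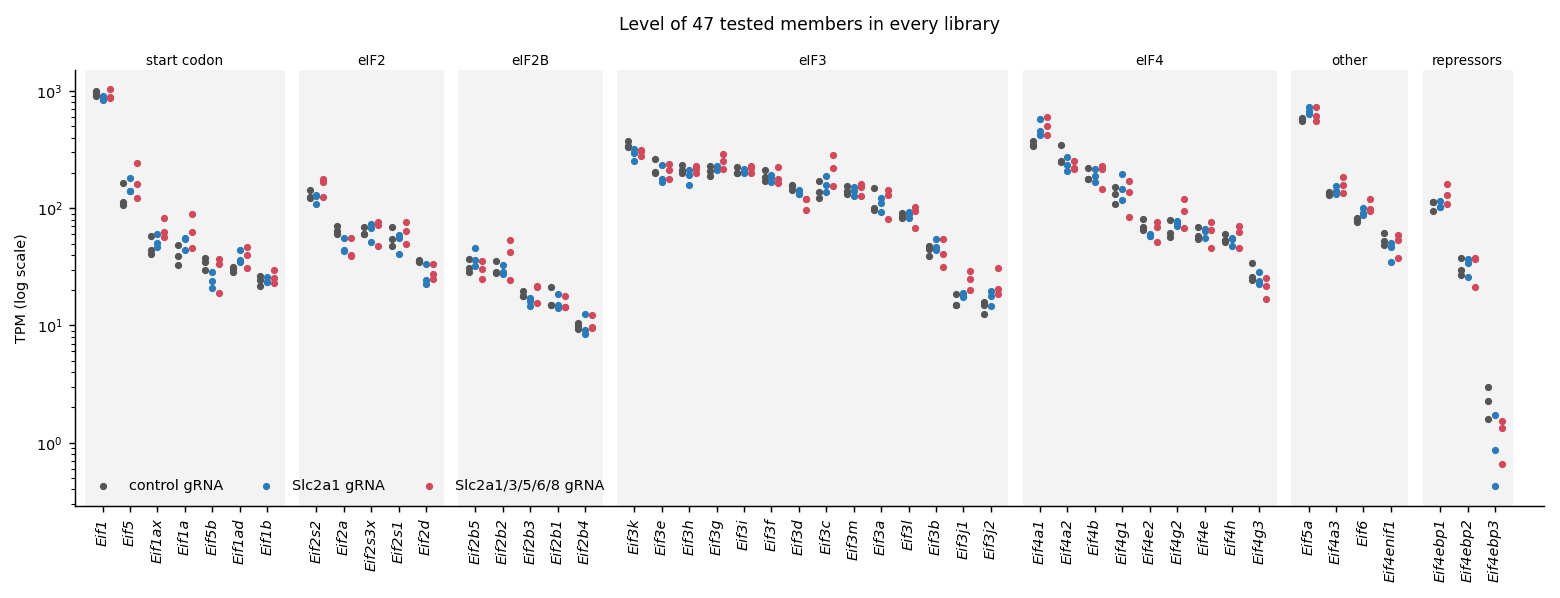
TPM on a log scale of the 44 tested factors and 3 repressors in each of 9 libraries, grouped by role and ordered by control mean, with each point being 1 library. *Eif1* lies highest at 957 TPM and *Eif4ebp3* lowest at 2.28 TPM on average in control cells.

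Levels of the expressed factors spanned 96.8-fold in control cells, around a median of 69 TPM. *Eif1*, which monitors start codon fidelity, was the highest at 957 ± 41.3 TPM (SD, n = 3 here and below). *Eif5a*, a factor that acts mainly in elongation, followed at 575 ± 14.7 TPM, then the eIF4F helicase *Eif4a1* at 353 ± 16.1 TPM and the eIF3 subunit *Eif3k* at 349 ± 21.5 TPM. *Eif2b4*, a subunit of the exchange factor eIF2B, was the lowest at 9.88 ± 0.606 TPM. Neighbours in this order were mostly not separated by their spread: in 8 of 43 neighbouring pairs the gap between means exceeded the larger of the 2 SDs. *Eif4a1* and *Eif3k* were among the pairs that it did not separate. Summed over all 68 factors, the level was 5911 ± 373 TPM in control, 5924 ± 329 TPM in *Slc2a1* gRNA and 6278 ± 840 TPM in *Slc2a1/3/5/6/8* gRNA cells. The libraries of the 3 groups overlapped. These are bulk samples, in which fewer cells expressing a gene and less RNA per cell cannot be told apart.

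Subunits of one complex did not have equal mRNA levels. The 5 eIF2B subunits lay between 9.88 TPM (*Eif2b4*) and 32.2 ± 4.21 TPM (*Eif2b5*, its catalytic subunit), below the median factor. eIF2 with its non-canonical counterparts ran from 35.5 ± 0.615 TPM for *Eif2d* to 130 ± 12.2 TPM for *Eif2s2*, the beta subunit. *Eif2s1*, the alpha subunit whose phosphorylation slows initiation, had 57 ± 10.7 TPM. Across 14 eIF3 genes the range was 24.1-fold, from *Eif3k* to *Eif3j2* at 14.5 ± 1.63 TPM, and the largest subunit *Eif3a* had 116 ± 29.3 TPM. In the eIF4 group *Eif4a1* was 12.5-fold above *Eif4g3* (28.3 ± 5.36 TPM), while the cap-binding protein *Eif4e* had 60.6 ± 7.57 TPM and the main scaffold *Eif4g1* 131 ± 22.2 TPM. *Eif1* exceeded its close relative *Eif1b* (24.3 ± 2.49 TPM) 39.4-fold, whereas *Eif1a* and *Eif1ax*, which both encode eIF1A, had 40.2 ± 7.73 and 47.6 ± 9.42 TPM and did not differ beyond their spread.

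Promoter sequences were listed for 41 of the 71 members in RefSeq (GRCm38.p6). Within the 250 bases before a start, on either strand, the E-box CACGTG, the letters bound by MYC, MAX and related factors, occurred in 9 of 41 members (22%), namely *Eif1b*, *Eif3f*, *Eif3k*, *Eif4a1*, *Eif4e*, *Eif4g1*, *Eif4h*, *Eif5a* and *Eif5a2*. The share among all 27025 genes of the table, expressed or not, was 6.86%. A gene counted if any of its listed starts held the letters. This background, used here and below, was not matched to the members in expression or in number of starts. Other eIF4 genes with a listed promoter, among them *Eif4a2*, *Eif4g3* and *Eif4b*, held none. The windows below are shown because they are those of expressed members that hold the E-box (in capitals) and no annotated exon.
*Eif4a1*, chr11:69672580-69672639, minus strand: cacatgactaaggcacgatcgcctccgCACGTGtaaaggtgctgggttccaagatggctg
*Eif4g1*, chr16:20672646-20672705, plus strand: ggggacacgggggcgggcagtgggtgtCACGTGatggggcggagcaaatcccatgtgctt
*Eif3k*, chr7:28981900-28981959, minus strand: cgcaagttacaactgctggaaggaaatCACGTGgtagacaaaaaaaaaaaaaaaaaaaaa
*Eif3f*, chr7:108934320-108934379, plus strand: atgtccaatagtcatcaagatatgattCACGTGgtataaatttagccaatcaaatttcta
*Eif5a*, chr11:69921428-69921487, minus strand: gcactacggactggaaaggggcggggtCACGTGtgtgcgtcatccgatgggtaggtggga
The first E-box base of *Eif4a1* lay 189 bases before a listed start, that of *Eif4g1* 54 and that of *Eif3k* 44 bases. The windows of *Eif4g1* (gene at chr16:20668313-20692884) and *Eif5a* (chr11:69916714-69921958) lie inside the annotated span of their gene, before a listed start within it. The ETS letters CCGGAAGT occurred in 5 of 41 members (12.2%) against 3.23% of all genes, and are shown for *Eif3d* because its mRNA fell (below), in capitals and read on the opposite strand.
*Eif3d*, chr15:77970863-77970922, minus strand: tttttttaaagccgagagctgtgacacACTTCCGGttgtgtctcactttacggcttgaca
The letters CCAAT occurred in 13 members (31.7%) against 37.5% of all genes. The ATF4-type letters TGATGCAA (0.918% of all genes) and the cyclic AMP response letters TGACGTCA (1.77% of all genes) occurred in 0 of the 41 members. These matches are descriptions of the windows and were not tested.

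The comparison of each targeted group with control asked which factor mRNAs differed after gRNA targeting of glucose transporters. With the *Slc2a1/3/5/6/8* gRNAs 9 of 44 tested factors rose and 2 fell (edgeR's quasi-likelihood test, adjusted p under 0.05 over 13834 genes). The risers were *Eif1a*, *Eif3j2*, *Eif3j1*, *Eif4g2*, *Eif3c*, *Eif4a1*, *Eif5*, *Eif6* and *Eif1ad*, by 1.36- to 1.64-fold, and the genes that fell were *Eif2a* and *Eif3d*. Among all tested genes 15.9% were called, 8.49% as higher and 7.44% as lower, against 25% of factors called, 20.5% higher and 4.55% lower. The median log2 fold change was 0.1 over the factors and 0.01 over all genes. The factors are measured more precisely than most genes, with a median SE of 0.12 against 0.15, and the difference between these shares was not tested. *Eif1a* and *Eif3j1* passed in each of 9 fits that left out 1 library, but the number of calls among factors dropped to 2 without control replicate 1, 6 without control replicate 2, 2 without control replicate 3 and 3 without *Slc2a1/3/5/6/8* gRNA replicate 3. The share called among all genes dropped as well in these fits, to 4.45%, 6.99%, 5.16% and 6.13%. On TPM, with limma on log2(TPM + 1), none of the 44 factors passed and 3.13% of all genes were called. At an unadjusted p under 0.05 limma gave 12 of 44 factors and 20.7% of all genes. In edgeR the same limit gave 16 of 44 factors (36.4%) and 31.4% of all genes. DESeq2 called 15 of 44 factors, adding *Eif2s2*, *Eif3g*, *Eif4a3* and *Eif4g3*, and 19.6% of all genes.

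With the *Slc2a1* gRNA alone, 2 of 44 factors rose, *Eif4a1* and *Eif1ad*, and none fell, a share of 4.55% against 4.64% called among all genes. At an unadjusted p under 0.05 there were 13 factors (29.5%) and 22% of all genes. The median log2 fold change of the factors was 0.14, against -0.001 for all genes, and 33 of 44 values were positive. DESeq2 called 8 of 44 factors, all as higher, and 9.6% of all genes. These were *Eif4a1* and *Eif1ad* with *Eif1a* (adjusted p = 0.00707), *Eif5a* (0.0108), *Eif5* (0.0196), *Eif6* (0.0271), *Eif2b5* (0.0281) and *Eif4g2* (0.0386), and these 6 also passed without a low-count filter and in a fit of the 2 groups alone. No factor passed without any 1 of control replicates 1, 2 and 3 or *Slc2a1* gRNA replicates 1 and 2, whereas 4 passed without *Slc2a1* gRNA replicate 3, and 6, 5 and 4 passed without *Slc2a1/3/5/6/8* gRNA replicates 1, 2 and 3. Of all genes 0.0773% to 0.507% were called in the former 5 fits and 6% to 8.88% in the latter 4. Both comparisons share the 3 control libraries, so their values are set side by side below without being read as independent. In the main fit the p-values rest on the spread between biological replicates that is left after the replicate block. This spread is pooled over the 3 groups.

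**Figure D2:**
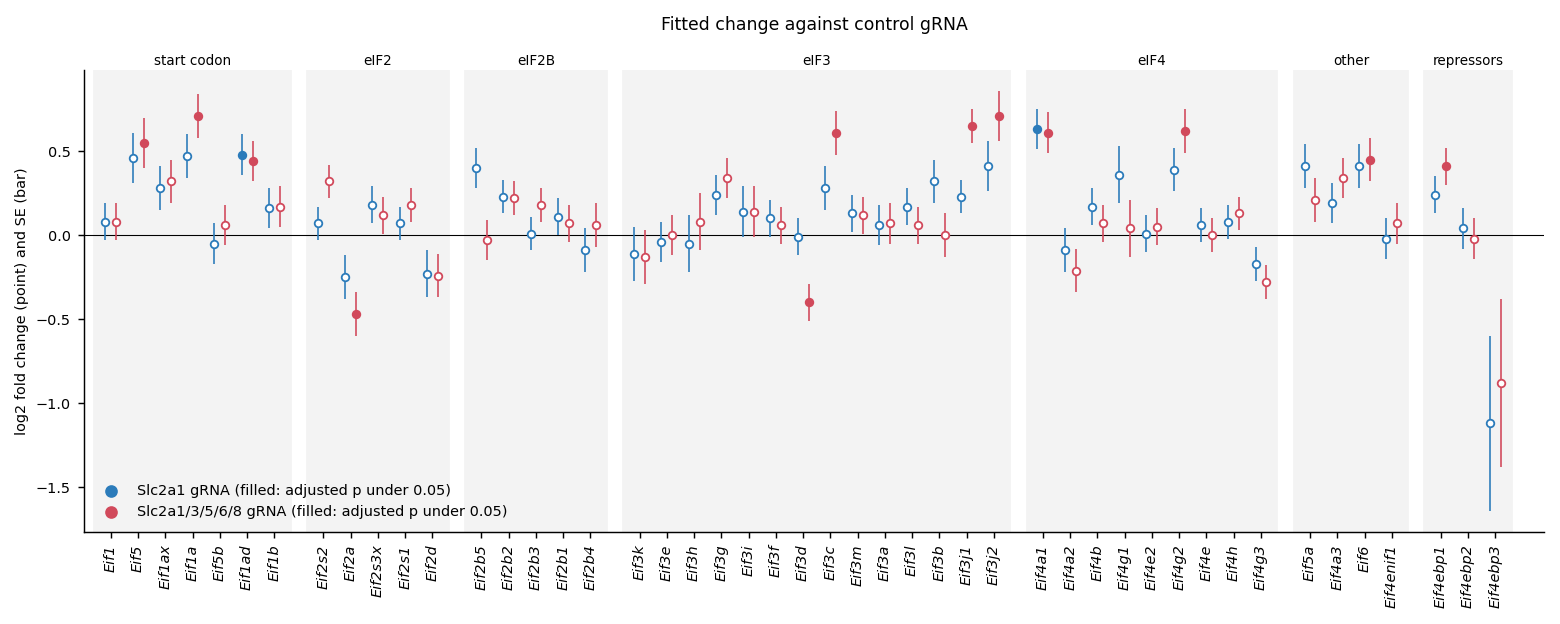
Log2 fold change against control gRNA (point) with its SE (bar) for the 47 tested members, with the *Slc2a1* gRNA in blue and the 5 gRNAs in red, with filled points marking an adjusted p under 0.05. *Eif4a1* and *Eif1ad* are filled in both colours, and *Eif2a* and *Eif3d* are the filled points below 0.

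The 7 genes grouped under start codon selection include the eIF1A relative *Eif1ad* and the subunit joining factor *Eif5b*. With the 5 gRNAs 3 of them, *Eif1ad* included, rose (42.9% called, against 15.9% of all genes). *Eif1a*, one of the genes for eIF1A, had 2239, 2626 and 2736 scaled counts in control replicates, 3736, 3348 and 3417 in *Slc2a1* gRNA replicates, and 3678, 3792 and 5052 in *Slc2a1/3/5/6/8* gRNA replicates. No targeted library lay as low as any control library. The log2 fold change was 0.71 ± 0.13 (SE; adjusted p = 0.00391) with the 5 gRNAs and 0.47 ± 0.13 (adjusted p = 0.0535) with the *Slc2a1* gRNA. *Eif1ax*, the X-linked gene for the same factor, changed by 0.32 ± 0.13 (adjusted p = 0.124) and 0.28 ± 0.13 (adjusted p = 0.239), neither past the threshold. The TPM ratio of *Eif1a* to *Eif1ax* was 0.884 ± 0.31 in control and 0.961 ± 0.146 with the 5 gRNAs, well within the spread.

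*Eif5*, which triggers GTP hydrolysis by eIF2 once the start codon is found, had 8914, 9707 and 10669 scaled counts in control, 15696, 12855 and 11579 in *Slc2a1* gRNA and 13606, 12340 and 16978 in *Slc2a1/3/5/6/8* gRNA cells. Its log2 fold change was 0.55 ± 0.15 (adjusted p = 0.0272) with the 5 gRNAs and 0.46 ± 0.15 (adjusted p = 0.0956) with the *Slc2a1* gRNA. *Eif1ad*, which encodes a protein related to eIF1A, had 1902, 1980 and 1627 scaled counts in control, 2841, 2630 and 2219 in *Slc2a1* gRNA and 2444, 2278 and 2709 in *Slc2a1/3/5/6/8* gRNA cells. It rose by 0.44 ± 0.12 (adjusted p = 0.0322) with the 5 gRNAs and by 0.48 ± 0.12 (adjusted p = 0.0476) with the *Slc2a1* gRNA. Without *Slc2a1/3/5/6/8* gRNA replicate 3 the former value was 0.28 (adjusted p = 0.177). Both targeted groups lay above the control range for these genes. The exons of *Eif1ad* (chr19:5366741-5371526) overlap *Banf1* on the other strand over 15.3% of their bases, and reads there cannot be assigned without strand. The abundant *Eif1* had 14516 ± 834, 15349 ± 1150 and 15319 ± 1450 scaled counts in the 3 groups and *Eif5b*, the factor for subunit joining, 3839 ± 176, 3719 ± 217 and 4008 ± 636. On scaled counts these differences were within the spread. On TPM both lay lower with the *Slc2a1* gRNA without overlap, *Eif1* at 833 to 904 against 913 to 995 and *Eif5b* at 21 to 28.7 against 29.8 to 37.8, where limma on log2(TPM + 1) gave *Eif5b* -0.47 (adjusted p = 0.298).

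Of 5 tested genes in the eIF2 group, *Eif2a* fell with the 5 gRNAs and none rose (20% called, against 15.9% of all genes). *Eif2a* encodes eIF2A, a separate protein that can deliver initiator tRNA by a non-canonical route and is not a subunit of eIF2. It had 3779, 3723 and 3545 scaled counts in control, 2915, 3004 and 3316 in *Slc2a1* gRNA and 2860, 3045 and 2101 in *Slc2a1/3/5/6/8* gRNA cells, with both targeted groups below the control range. The log2 fold change was -0.47 ± 0.13 (adjusted p = 0.031) and, with the *Slc2a1* gRNA, -0.25 ± 0.13 (adjusted p = 0.284). Without *Slc2a1/3/5/6/8* gRNA replicate 3 the former value was -0.3 (adjusted p = 0.177). The 3 subunits of eIF2 itself gave positive values short of the threshold with the 5 gRNAs: *Eif2s2* 0.32 ± 0.1 (adjusted p = 0.053, or 0.0395 without the replicate block), *Eif2s1* 0.18 ± 0.1 (adjusted p = 0.247) and *Eif2s3x* 0.12 ± 0.11 (adjusted p = 0.522). For *Eif2s2* the groups did not overlap, at 8200 to 8622 scaled counts in control and 10344 to 10722 with the 5 gRNAs.

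None of the 5 eIF2B genes passed with the 5 gRNAs, where none had an unadjusted p under 0.05 and their log2 fold changes did not exceed 0.22, and DESeq2 called none of them. *Eif2b5* had 2438, 2041 and 1831 scaled counts in control, 3378, 2524 and 2426 in *Slc2a1* gRNA and 2080, 1895 and 2144 in *Slc2a1/3/5/6/8* gRNA cells. Its value with the *Slc2a1* gRNA, 0.4 ± 0.12, did not pass (adjusted p = 0.0756), but it passed in DESeq2 (adjusted p = 0.0281), without a low-count filter (0.0398) and in a fit of the 2 groups alone (0.00607).

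Among 14 eIF3 genes 3 rose and 1 fell with the 5 gRNAs (28.6% called, against 15.9% of all genes). None passed with the *Slc2a1* gRNA. *Eif3c*, a core subunit that contacts eIF1 and eIF5, had 12051, 11168 and 12216 scaled counts in control, 16270, 13365 and 13258 in *Slc2a1* gRNA and 16478, 17046 and 20705 in *Slc2a1/3/5/6/8* gRNA cells. The highest control library lay below the lowest library of either targeted group. The log2 fold change was 0.61 ± 0.13 (adjusted p = 0.00825) with the 5 gRNAs and 0.28 ± 0.13 (adjusted p = 0.227) with the *Slc2a1* gRNA.

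*Eif3d*, the subunit that can itself bind the cap of certain mRNAs, moved the other way. It had 6862, 7746 and 6451 scaled counts in control, 6808, 7259 and 6746 in *Slc2a1* gRNA and 5707, 5202 and 5047 in *Slc2a1/3/5/6/8* gRNA cells, so that the last group lay below all other libraries. The log2 fold change with the 5 gRNAs was -0.4 ± 0.11 (adjusted p = 0.0273), and against *Slc2a1* gRNA cells it was -0.38 ± 0.11 (adjusted p = 0.086). Exons of *Eif3d* (chr15:77958998-77970813) overlap *Gm17638* on the other strand over 43.3% of their bases. *Gm17638* was given 12 to 39 estimated counts per library, and the division of reads over the shared bases was not tested.

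*Eif3j1* and *Eif3j2* both encode the loosely attached eIF3j subunit, and 94% of the 31-base words of the longest *Eif3j2* transcript occur in *Eif3j1*, so the division of reads between them is uncertain. *Eif3j1* had 2281, 2385 and 2417 scaled counts in control, 2881, 2623 and 2802 in *Slc2a1* gRNA and 3612, 3578 and 3968 in *Slc2a1/3/5/6/8* gRNA cells, without overlap between any of the 3 groups. Its log2 fold change was 0.65 ± 0.1 (adjusted p = 0.00189) with the 5 gRNAs and 0.23 ± 0.1 (adjusted p = 0.209) with the *Slc2a1* gRNA. *Eif3j2* changed by 0.71 ± 0.15 (adjusted p = 0.00854) and 0.41 ± 0.15 (adjusted p = 0.129). With the reads of both genes added together the rise with the 5 gRNAs was 0.67 (adjusted p = 0.00266). The TPM ratio of *Eif3j1* to *Eif3j2* stayed at 1.11 ± 0.107 in control and 1.08 ± 0.143 with the 5 gRNAs. The remaining 10 eIF3 genes did not pass, and for *Eif3a* the scaled counts were 15970 ± 2310, 16585 ± 1140 and 16696 ± 2040 in the 3 groups.

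In the eIF4 group 2 of 9 tested genes rose with the 5 gRNAs (22.2% called, against 15.9% of all genes). *Eif4a1* (chr11:69666936-69672423), the helicase of eIF4F that unwinds mRNA leaders, had 12607, 12319 and 11518 scaled counts in control, 21994, 18192 and 16396 in *Slc2a1* gRNA and 19305, 16869 and 19556 in *Slc2a1/3/5/6/8* gRNA cells. Every targeted library lay above every control library on scaled counts and on TPM (342 to 372 TPM in control, 421 or more in all 6 targeted libraries). The rises were 0.63 ± 0.12 (1.54-fold, adjusted p = 0.018) with the *Slc2a1* gRNA and 0.61 ± 0.12 (1.53-fold, adjusted p = 0.0066) with the 5 gRNAs. The transcribed copy *Eif4a-ps4* holds 33.5% of the 31-base words of *Eif4a1*. It had 2019, 2600 and 1898 scaled counts in control and 1607 to 3580 in the targeted libraries, and with its reads added the rise of *Eif4a1* was 0.56 (adjusted p = 0.0306) with the *Slc2a1* gRNA and 0.56 (adjusted p = 0.0136) with the 5 gRNAs.

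*Eif4g2* encodes DAP5, a scaffold related to eIF4G that lacks the eIF4E-binding region. It had 6345, 7334 and 7206 scaled counts in control, 10131, 8805 and 8281 in *Slc2a1* gRNA and 9442, 10222 and 12501 in *Slc2a1/3/5/6/8* gRNA cells, with no overlap between control and either targeted group. The log2 fold change was 0.62 ± 0.13 (adjusted p = 0.0102) with the 5 gRNAs and 0.39 ± 0.13 (adjusted p = 0.117) with the *Slc2a1* gRNA. The scaffold *Eif4g1* had 15611 ± 1050, 20138 ± 4700 and 16020 ± 3190 scaled counts, with *Slc2a1* gRNA replicate 1 at 25528, and *Eif4g3* gave -0.28 ± 0.1 (adjusted p = 0.0772) with the 5 gRNAs. *Eif4e* was close to level, at 2888 ± 142 scaled counts in control, 3013 ± 137 with the *Slc2a1* gRNA and 2882 ± 122 with the 5 gRNAs. *Eif4a2*, the second eIF4A helicase gene, had 10436 ± 450, 9809 ± 659 and 9062 ± 1450 scaled counts.

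**Figure D3:**
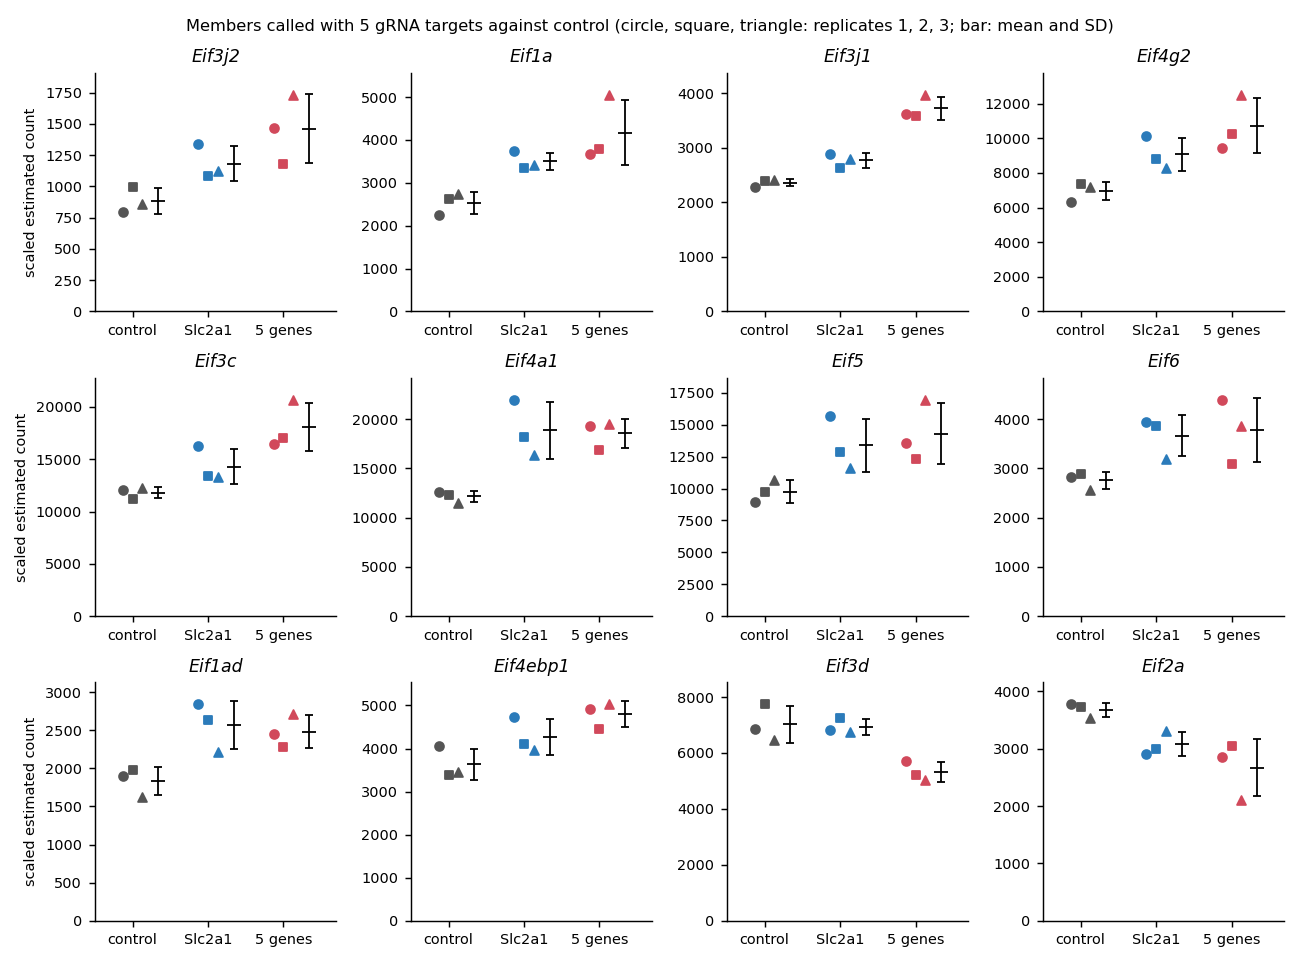
Scaled estimated counts of the 12 members called with the *Slc2a1/3/5/6/8* gRNAs against control, by library (circle, square and triangle for replicates 1, 2 and 3), with the mean and SD as a bar. For *Eif3d* the *Slc2a1* gRNA points (6746 to 7259) lie at the control level, and for *Eif3j1* the 3 groups form separate steps.

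Of 4 tested factors with main roles outside initiation, *Eif6* rose with the 5 gRNAs (25% called, against 15.9% of all genes). *Eif6* encodes a factor that keeps the large ribosomal subunit from joining early and acts in its maturation. It had 2835, 2883 and 2553 scaled counts in control, 3948, 3870 and 3185 in *Slc2a1* gRNA and 4400, 3099 and 3853 in *Slc2a1/3/5/6/8* gRNA cells, above the control range in both targeted groups. The log2 fold changes were 0.45 ± 0.13 (adjusted p = 0.0329) with the 5 gRNAs and 0.41 ± 0.13 (adjusted p = 0.0872) with the *Slc2a1* gRNA. *Eif5a* gave 0.21 ± 0.13 (adjusted p = 0.269) and 0.41 ± 0.13 (adjusted p = 0.0838).

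The 3 eIF4E-binding repressors differed from each other in level. *Eif4ebp1* was the main one, at 108 ± 11 TPM in control cells, with *Eif4ebp2* at 31.4 ± 5.43 TPM and *Eif4ebp3* at 2.28 ± 0.705 TPM. *Eif4ebp1* (chr8:27260329-27276674) had 4051, 3396 and 3445 scaled counts in control, 4737, 4114 and 3962 in *Slc2a1* gRNA and 4925, 4459 and 5030 in *Slc2a1/3/5/6/8* gRNA cells. The last group lay above the control range and the middle group overlapped it. It rose by 0.41 ± 0.11 (1.33-fold, adjusted p = 0.0223) with the 5 gRNAs and gave 0.24 ± 0.11 (adjusted p = 0.218) with the *Slc2a1* gRNA. The call did not hold without control replicate 1, 2 or 3 (adjusted p = 0.102, 0.0999 and 0.135), without *Slc2a1/3/5/6/8* gRNA replicate 3 (0.113), with total count scaling (0.0538) or in limma on either TPM scale (0.316 and 0.322). *Eif4ebp2* had 4286 ± 331, 4396 ± 476 and 4224 ± 468 scaled counts. *Eif4ebp3* had 7 to 41 scaled counts per library, and its values of -1.12 ± 0.52 (adjusted p = 0.229) and -0.88 ± 0.5 (adjusted p = 0.258) did not pass at this depth. On TPM its *Slc2a1/3/5/6/8* gRNA libraries (0.66 to 1.54) lay just below the control libraries (1.58 to 2.99). Exons of *Eif4ebp3* overlap those of the readthrough gene *AC115631.1* over 67.3% of their bases.

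Groups were also compared on ratios of TPM within a library, which do not depend on how libraries are scaled. The TPM ratio of *Eif4a1* to *Eif4a2* was 1.35, 1.39 and 1.07 in control, 2.77, 1.8 and 1.67 in *Slc2a1* gRNA and 1.92, 2.01 and 2.78 in *Slc2a1/3/5/6/8* gRNA cells. Each targeted library exceeded each control library. The other 3 ratios were chosen after their values were seen and are descriptions. *Eif3c* to *Eif3d* was 0.945 ± 0.15 in control, 1.19 ± 0.197 with the *Slc2a1* gRNA and 1.95 ± 0.401 with the 5 gRNAs, where the lowest library (1.62) lay above all other libraries. *Eif4g2* to *Eif4g1* was 0.507 ± 0.0669, 0.498 ± 0.0998 and 0.728 ± 0.0663. *Eif4ebp1* to *Eif4e*, the repressor against its target, was 1.79 ± 0.164, 1.73 ± 0.119 and 2.14 ± 0.183, with 1.97 in the highest control library and 1.98 in the lowest library of the 5 gRNAs.

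**Figure D4:**
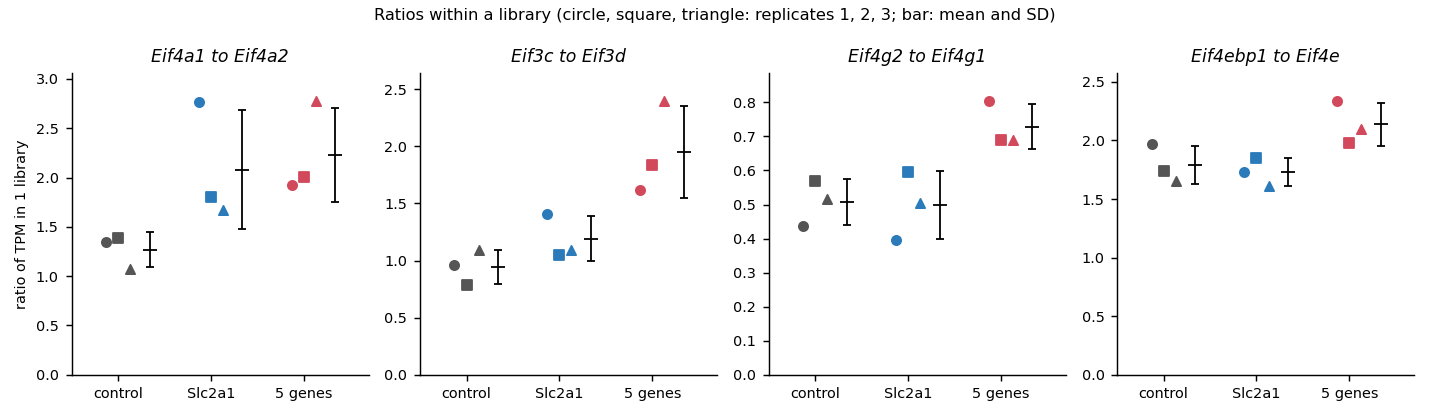
Ratio of the TPM of 2 genes within each library for 4 pairs, by group (circle, square and triangle for replicates 1, 2 and 3), with the mean and SD as a bar. The *Eif3c* to *Eif3d* ratio of the 5-gene group lies at 1.62 or above, over all *Slc2a1* gRNA and control libraries.

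On scaled counts the control and *Slc2a1/3/5/6/8* gRNA groups did not overlap for 19 of 44 factors, 16 higher and 3 lower, and for 34.2% of all tested genes. On TPM they did not overlap for 8 factors, 4 higher (*Eif3j1*, *Eif3j2*, *Eif4a1* and *Eif6*) and 4 lower (*Eif2a*, *Eif2d*, *Eif3d* and *Eif3k*), and for 22.6% of all tested genes. For this comparison the split into higher and lower was not set against that of all genes. *Eif1a*, *Eif3c*, *Eif4g2*, *Eif5*, *Eif1ad* and *Eif4ebp1*, called on counts, overlapped on TPM. With the *Slc2a1* gRNA, on scaled counts 19 factors were higher and 2 lower without overlap, where 13.2% of all tested genes were higher and 13% lower (26.2% in either direction). On TPM 4 were higher (*Eif1ad*, *Eif4a1*, *Eif5a* and *Eif6*) and 7 lower (*Eif1*, *Eif2a*, *Eif2b3*, *Eif2d*, *Eif3k*, *Eif4e2* and *Eif5b*), where 4.58% of all tested genes were higher and 17.8% lower (22.4% in either direction). The balance of all genes moved the same way, with a median of -0.111 in limma on log2(TPM + 1).

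Between the targeted groups no factor passed the edgeR test, where 2.31% of all tested genes were called, and 6 of 44 factors (13.6%) had an unadjusted p under 0.05, against 19.1% of all genes. DESeq2 called 3 of 44 factors and 5.78% of all genes, with *Eif3j1* as higher and *Eif3d* and *Eif2b5* as lower with the 5 gRNAs. Leaving out *Slc2a1/3/5/6/8* gRNA replicate 3 gave 1 call, *Eif2b5*, as lower. The values of *Eif4a1* (-0.01 ± 0.12), *Eif1ad* (-0.04 ± 0.12) and *Eif6* (0.04 ± 0.13) were near 0, whereas *Eif3c* gave 0.34 ± 0.13 (adjusted p = 0.171) and *Eif3j1* 0.43 ± 0.1 (adjusted p = 0.0507).

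Other genes of translation were read from 6 lists of 63 genes, of which 61 were tested. With the 5 gRNAs 14 rose and 2 fell, against 3 that rose and none that fell with the *Slc2a1* gRNA. These are 26.2% of the tested list against 15.9% of all genes, and 4.92% against 4.64%, the latter close to the background. The 16 calls with the 5 gRNAs dropped to 4, 5 and 5 without control replicates 1, 2 and 3, to 6 without *Slc2a1/3/5/6/8* gRNA replicate 3, and to 2 in limma on TPM. Without the replicate block 11 were called, 9 as higher and 2 as lower, so some of the calls named below depend on the block. Of 13 genes for eIF2 kinases, phosphatase subunits and their effectors 3 rose (23.1% called, against 15.9% of all genes). These were *Ppp1r15a* (0.61 ± 0.17, adjusted p = 0.0262) and *Ppp1r15b* (0.57 ± 0.14, adjusted p = 0.0153), which direct phosphatase to eIF2 alpha, and the transcription factor *Atf4* (0.44 ± 0.12, adjusted p = 0.0248). *Ppp1r15a* also differed between the targeted groups, by 0.72 ± 0.16 (adjusted p = 0.0424), but not without the replicate block (adjusted p = 0.118). The 4 eIF2 kinase genes did not pass in any comparison.

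Of 18 genes of the mTORC1 and MNK arms that act on eIF4E, 5 rose and 1 fell with the 5 gRNAs (33.3% called, against 15.9% of all genes). *Ddit4*, an inhibitor of mTORC1, had 2670, 1960 and 1557 scaled counts in control, 4948, 4404 and 3778 in *Slc2a1* gRNA and 4905, 4131 and 4131 in *Slc2a1/3/5/6/8* gRNA cells. It rose by 1.11 ± 0.12 (2.15-fold, adjusted p = 0.0033) and 1.12 ± 0.12 (2.17-fold, adjusted p = 0.000204) and was the one gene of its list called with the *Slc2a1* gRNA. The mTORC1 inhibitors *Deptor* (0.79 ± 0.2, adjusted p = 0.0208) and *Sesn2* (0.77 ± 0.13, adjusted p = 0.00339), the eIF4E kinase *Mknk1* (0.72 ± 0.13, adjusted p = 0.00405) and the mTOR partner *Mlst8* (0.44 ± 0.13, adjusted p = 0.0419) rose with the 5 gRNAs. The S6 kinase gene *Rps6kb2* fell by 0.67 ± 0.12 on the log2 scale (adjusted p = 0.00376). Between the targeted groups *Deptor* was higher by 1.41 ± 0.21 (adjusted p = 0.00572) and *Mknk2* lower, at -0.48 ± 0.11 (adjusted p = 0.0449), with the 5 gRNAs. Without the replicate block neither passed (adjusted p = 0.0859 and 0.0518). The 3 calls between the targeted groups among these lists became 0 without *Slc2a1* gRNA replicate 2, and 1 without control replicate 2, *Slc2a1* gRNA replicate 3 or *Slc2a1/3/5/6/8* gRNA replicate 2.

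Among 15 poly(A)-binding and reinitiation partners 26.7% were called with the 5 gRNAs, against 15.9% of all genes. The helicase genes *Ddx3x* (0.55 ± 0.14, adjusted p = 0.019) and *Dhx29* (0.4 ± 0.1, adjusted p = 0.0214) and *Paip2b* (0.33 ± 0.1, adjusted p = 0.047) rose. *Mcts2* fell from 44, 69 and 72 to 13, 31 and 15 scaled counts (adjusted p = 0.0198). With the *Slc2a1* gRNA the partners that rose were *Denr* (0.48 ± 0.12, adjusted p = 0.0406), a reinitiation factor, and *Pabpc4* (0.47 ± 0.12, adjusted p = 0.0412). Neither passed without control replicate 1, 2 or 3 or *Slc2a1* gRNA replicate 1 or 2, with total count scaling or in limma on TPM, whereas *Ddit4* passed in all of these but limma on log2(TPM + 1) (adjusted p = 0.0598). Without the replicate block *Denr* did not pass either (adjusted p = 0.0609), whereas *Pabpc4* did (adjusted p = 0.0339). Of 8 tested elongation factor genes *Eef1e1* rose with the 5 gRNAs (0.46 ± 0.12, adjusted p = 0.0255), which is 12.5% of that list. Of 5 tested release and recycling genes the release factor *Etf1* (0.47 ± 0.12, adjusted p = 0.0208) and the recycling factor *Abce1* (0.37 ± 0.11, adjusted p = 0.0435) rose, which is 40% of that list. Neither of 2 mitochondrial initiation factor genes passed in any comparison.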

How the data were processed

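Total RNA of 9 cultures (3 groups of 3 biological replicates) had been reverse transcribed from oligo-dT, sequenced as paired reads and quantified with Salmon 1.5.1, per the labels. The authors deposited estimated counts and TPM per gene. Salmon's settings and the annotation are not given in the sources used here. Deposited transcript lengths, a unit of their own, were not tested.

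After rounding, the estimated counts entered edgeR 4.0.16 (R 4.3.3) in a quasi-likelihood fit of all 9 libraries, with TMM scaling, filterByExpr and the replicate number as a block. Benjamini-Hochberg adjustment ran over 13834 genes with a threshold of 0.05. The SE is the log2 fold change divided by the square root of F. DESeq2 1.42.0, limma 3.58.1 on log2(TPM + 1) and log2(TPM + 0.1), other filters and scaling, and leaving out each library were alternatives. Replicates of a group differed by more than sampling noise (chi-square per degree of freedom of at least 18.8). On simulated data for *Slc2a1/3/5/6/8* gRNA against control (13516 genes), 42 of 100 genes changed 1.5-fold and 84 of 100 changed 2-fold were recovered, and 10 unchanged genes were called.

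Named members were those called in any comparison, the most and least abundant of each complex, and chosen core factors and paralogue pairs. Other named genes were the called ones of the lists. Members and lists were chosen with earlier results of these data known. Promoters (41 members matched) came from RefSeq, and gene positions (52 matched) from GENCODE for GRCm38.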

Additional observations from a re-analysis of the deposited data

How the results depend on the processing

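With the *Slc2a1* gRNA the 2 calls among factors became 8 in DESeq2, 1 with total count scaling, 9 without a low-count filter, 13 with a fit of the 2 groups alone and 0 in limma on either TPM scale, and 0 to 6 when 1 library was left out. The share of all genes moved too, from 4.64% to 9.6%, 5.33%, 5.47%, 16.7% and, in limma, 0% and 0.376%. With the 5 gRNAs the 11 calls became 15 in DESeq2, 0 in limma on either TPM scale (3.13% and 3.34% of all genes) and 2 to 12 when 1 library was left out, lowest without control replicate 1 or 3. Between the targeted groups the 0 calls became 3 in DESeq2, 1 with total count scaling, 2 with no filter, 1 with at least 10 counts in every sample, and 0 to 1 when 1 library was left out. Among other translation genes the 3 calls with the *Slc2a1* gRNA became 7 in DESeq2, 1 with total count scaling, 6 with no filter, 16 with only the 2 groups, 0 and 1 in limma, and 1 to 5 with 1 library left out. The 16 calls with the 5 gRNAs became 2 and 2 in limma and 4 to 18 with 1 library left out. The 3 calls between the targeted groups became 5 in DESeq2, 5 with no filter, 1 with only the 2 groups, 0 and 0 in limma, and 0 to 2 with 1 library left out. The cause was not tested.

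Signs were compared only against control, for the called members and a chosen set of others. No call changed sign under any alternative run. Uncalled values did, none of them past the threshold. With the *Slc2a1* gRNA, total count scaling gave -0.01 for *Eif1*, -0.02 for *Eif2s1*, -0.03 for *Eif2s2*, *Eif3a* and *Eif4e* and -0.06 for *Eif4ebp2*, and limma on both TPM scales gave -0.15 for *Eif1*, -0.13 for *Eif2s1*, -0.1 for *Eif2s2*, -0.07 for *Eif3a* and -0.02 for *Eif4ebp1*. With 1 library left out the range was -0.04 to 0.13 for *Eif3a*, -0.05 to 0.05 for *Eif3d*, -0.16 to 0.01 for *Eif4a2*, -0.06 to 0.12 for *Eif4ebp2* and -0.12 to 0.02 for *Eif5b*. With the 5 gRNAs, limma on log2(TPM + 1) and log2(TPM + 0.1) gave -0.05 and -0.05 for *Eif1*, 0.02 and 0.02 for *Eif4e*, -0.04 and -0.04 for *Eif4g1* and -0.25 and -0.26 for *Eif5b*, total count scaling gave -0.01 for *Eif4g1*, and no filter gave 5.9e-05 for *Eif4e*. With 1 library left out the range was -0.16 to 0.08 for *Eif2b5*, -0.02 to 0.14 for *Eif3a*, -0.05 to 0.05 for *Eif4e*, -0.16 to 0.11 for *Eif4ebp2*, -0.14 to 0.26 for *Eif4g1* and -0.05 to 0.19 for *Eif5b*.

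Without the replicate block 2, 12 and 0 factors and 2, 11 and 0 other translation genes were called in the 3 comparisons, and the added factor was *Eif2s2*. Same-numbered libraries correlated at 0.1 to 0.189, -0.059 to 0.155 and -0.092 to -0.021 in the 3 comparisons. Libraries with different numbers correlated at -0.171 to 0.031, -0.235 to 0.138 and -0.143 to 0.177. These are correlations of deviations from the group mean, which sum to 0 within a group. A positive mean for same-numbered pairs thus goes with a negative mean for the others, which are no independent reference. Between control and *Slc2a1* gRNA cells every same-numbered pair lay above every other pair, in part for this reason. In the other comparisons the ranges overlapped, so the data do not show that the numbers pair the libraries across all 3 groups. The block was kept because the study states a paired test. Limma on log2(TPM + 1) moved the median of all genes to -0.111 with the *Slc2a1* gRNA and -0.052 with the 5 gRNAs, and total count scaling moved it to -0.095 and -0.042. The sign changes under these settings are to be read relative to those shifts. Adding the reads of the most similar gene, chosen after seeing the data, left 2, 11 and 0 factors called. Of the called factors only *Eif3j1*, *Eif3j2* and *Eif4a1* gained reads in this run. It therefore does not bear on the other calls.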
